A study of Mus musculus with 6 samples.

Results

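The suppressors of cytokine signalling (SOCS) family, made up of Cish and Socs1 to Socs7, was followed in mouse liver RNA after knockdown of the long non-coding RNA Hnf1aos1. The 8 members were chosen by gene symbol, as the whole family, from the 40803 genes of the count table, and the family itself was picked because Cish and Socs3 stood strongly higher in the rAAV8-Hnf1aos1 libraries. Every difference between the groups in a member is therefore given as a description, and where members are counted among the calls of the fit over all genes, the count is a description too. All 8 members passed the filter on low counts. In the rAAV8-Hnf1aos1 livers Cish was 12.2-fold, Socs3 4.31-fold and Socs2 3.34-fold higher than in the rAAV8-Scramble livers, with no overlap between 3 and 3 libraries, and Socs6 was 1.3-fold higher, also without overlap. Socs1 (1.94-fold), Socs4 (1.1-fold), Socs5 (0.931-fold) and Socs7 (1.04-fold) overlapped between the groups.

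SOCS proteins are intracellular inhibitors of cytokine and hormone receptors that signal through Janus kinases (JAKs) and STAT transcription factors. A central SH2 domain binds phosphorylated tyrosines on the receptor or the kinase, and a C-terminal SOCS box recruits elongin B, elongin C and cullin 5 to form a ubiquitin ligase. Cish, Socs1, Socs2 and Socs3 are classical STAT target genes, so the cytokine or hormone that activates the pathway also raises the inhibitor. In liver, Socs3 restrains the response to interleukin-6, Socs2 restrains growth hormone, and Socs1 restrains interferon gamma, while Socs4 to Socs7 are better known for links to growth factor and insulin receptors.

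Livers of C57BL6 mice were sequenced in 2 groups with 3 libraries each, labelled as biological replicates 1 to 3. Mice of the rAAV8-Hnf1aos1 group had received adeno-associated virus serotype 8, which enters hepatocytes, carrying a short hairpin RNA against exon 1 of Hnf1aos1; mice of the rAAV8-Scramble group had received the same vector with a scrambled hairpin. Per the methods, the animals were males of about 6 weeks, given the virus by tail vein and with livers taken 4 weeks later; per the design text they were fed normally. Both vectors drove the hairpin from a U6 promoter, which is not specific to a cell type, and carried an EGFP reporter, so the controls share the virus, a hairpin and the reporter, and livers without virus were not analysed here.

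The libraries held 14704746 to 19462398 gene counts. Normalized counts below are the deposited raw counts divided by each library's TMM-scaled size (the trimmed mean of M values corrects for differences in RNA composition) relative to the mean of the 6 libraries. Hnf1aos1 itself had 512, 491 and 620 normalized counts in rAAV8-Scramble replicates 1 to 3 and 278, 258 and 433 in rAAV8-Hnf1aos1 replicates 1 to 3. The groups did not overlap, with a log2 fold change of -0.74 ± 0.195 (SE, n = 3 per group), but Hnf1aos1 did not pass the threshold of 0.05 (edgeR's quasi-likelihood test, p adjusted by Benjamini-Hochberg, adjusted p = 0.0625). Without rAAV8-Hnf1aos1 replicate 3, which kept a fraction of 0.8 of the scramble mean, the log2 fold change was -1.01 and passed (adjusted p = 0.000261). The hepatocyte markers Alb, Ttr, Apoa1, Cps1, Ass1 and Tat, defining genes of the main cell of liver, summed to 64334 to 72289 CPM (counts scaled to library size) in the scramble group and 63555 to 79094 CPM in the knockdown group. Of these, Tat, which encodes tyrosine aminotransferase, was called lower by edgeR (adjusted p = 0.00766; 0.0523 without rAAV8-Scramble replicate 3), while DESeq2 called 2 of the 6.

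Of 16327 genes tested, 1032 (6.32%) were called at an adjusted p under 0.05 by edgeR, 505 higher (3.09%) and 527 lower (3.23%) in the rAAV8-Hnf1aos1 group. Among the 8 members, 2 were called, Cish and Socs3, both higher. The groups did not overlap for 4 members, Cish, Socs2, Socs3 and Socs6, all higher, beside 15.2% of all genes tested that were higher without overlap. A log2 fold change above 1 was found for 3 members, Cish, Socs2 and Socs3, beside 1.75% of all genes tested. The choice of the family used this contrast, so nothing is read from these counts. The median log2 fold change of the 8 members was 0.67, with 7 above 0, and that of all genes tested was -0.0. The calls depended on the libraries and the tool. Without rAAV8-Scramble replicate 1, 2 or 3, edgeR called 0 of the 8 members, beside 3.74, 2.34 and 0.619% of all genes called. In these fits 4, 4 and 3 members had an unadjusted p under 0.05. In the edgeR fit with all libraries, 3822 of the 16327 genes tested had an unadjusted p under 0.05. Without rAAV8-Hnf1aos1 replicate 1, 2 or 3, edgeR called 2, 1 (Socs3) and 2 members, beside 3.77, 1.93 and 11.2% of all genes called. DESeq2 called 3 (Socs2 added) beside 7.11% of all genes called. limma's voom called 0 beside 5.19%, with 4 members at an unadjusted p under 0.05. edgeR with library sizes from the ERCC spike-ins called 4 (Socs4 and Socs6 added) beside 20.8%, without a filter on low counts 2 (Socs3 and Socs6) beside 6.92%, and with the replicate number as a block 2 beside 5.38%.

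**Figure D1:**
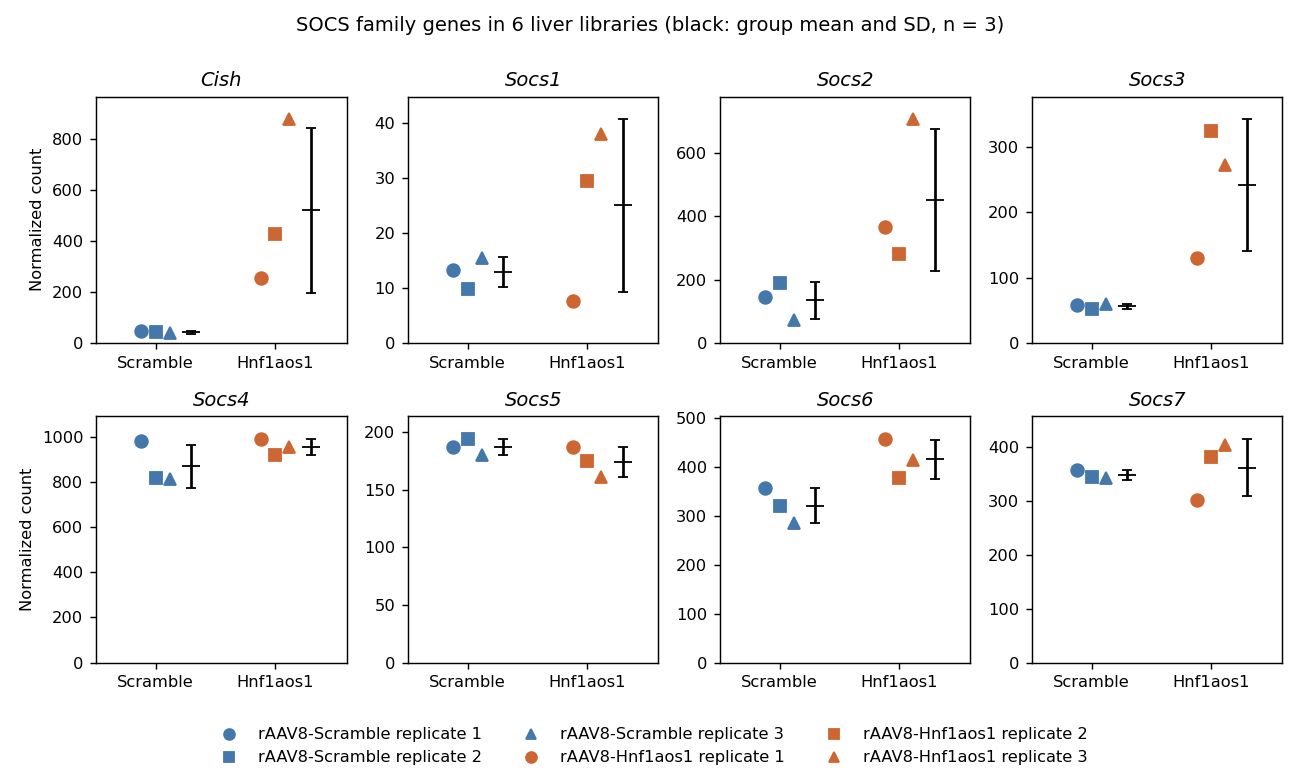
Normalized counts (y axis, 1 panel per gene, each axis from 0) of the 8 SOCS family genes in the 3 rAAV8-Scramble (blue) and 3 rAAV8-Hnf1aos1 (orange) libraries, with symbols for the replicate and black bars for the mean ± SD (n = 3). The orange points of Cish, Socs2, Socs3 and Socs6 lie above every blue point, and those of Socs1, Socs4, Socs5 and Socs7 overlap the blue ones.

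The stretch upstream of the transcription start was examined first for the STAT-responsive members, because STAT factors bind the palindrome TTCNNNGAA, which reads the same on both strands. RefSeq start windows of 300 bases (250 before the start and 50 after it, GRCm38.p6) were found for 4 of 8 members, Cish, Socs1, Socs3 and Socs4. The Cish and Socs3 windows are shown because these members had the largest differences between the groups, and the Socs1 window for contrast. Each line runs 5′ to 3′ on the strand of the gene from 250 bases before the start to 20 bases after it, with motif matches in capitals.
Cish, chr9:107296409-107296678, + strand: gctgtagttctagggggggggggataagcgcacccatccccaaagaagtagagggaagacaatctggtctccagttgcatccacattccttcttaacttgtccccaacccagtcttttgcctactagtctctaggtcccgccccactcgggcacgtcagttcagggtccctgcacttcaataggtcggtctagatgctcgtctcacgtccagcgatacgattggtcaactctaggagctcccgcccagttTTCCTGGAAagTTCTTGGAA
Socs3, chr11:117969347-117969616, - strand: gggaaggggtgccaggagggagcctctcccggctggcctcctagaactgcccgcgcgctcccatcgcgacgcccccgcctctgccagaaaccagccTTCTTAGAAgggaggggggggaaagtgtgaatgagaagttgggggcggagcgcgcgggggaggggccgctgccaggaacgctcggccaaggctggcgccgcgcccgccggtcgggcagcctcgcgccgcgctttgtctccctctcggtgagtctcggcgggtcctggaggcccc
Socs1, chr16:10785517-10785786, - strand: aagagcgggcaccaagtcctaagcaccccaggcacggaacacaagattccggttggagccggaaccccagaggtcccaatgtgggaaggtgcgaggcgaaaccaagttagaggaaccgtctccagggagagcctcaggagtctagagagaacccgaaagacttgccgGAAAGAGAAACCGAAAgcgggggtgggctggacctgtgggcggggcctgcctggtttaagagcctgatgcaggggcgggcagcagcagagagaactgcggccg
The Cish window held 2 matches to TTCNNNGAA, TTCCTGGAA and TTCTTGGAA, in the first 20 transcribed bases. The Socs3 window held 1 match, TTCTTAGAA, at bases -154 to -146 before the start. At least 1 match was found in 8.3% of 32851 such windows of all genes and at least 2 in 0.457%. The Socs1 and Socs4 windows held no match to these letters. The Socs1 window held 2 overlapping matches to an element bound by interferon regulatory factors (GAAA, any 2 bases, then GAAA, searched on both strands), GAAAGAGAAA at -83 to -74 and GAAACCGAAA at -77 to -68; 3.44% of windows held at least 1 and 0.225% at least 2, and the Cish, Socs3 and Socs4 windows held none. A match describes the letters only, since binding was not measured. The Socs3 window lies wholly inside the gene as GENCODE annotates it (chromosome 11, 117966079 to 117970047, - strand, GRCm38). The Cish window also starts inside its GENCODE gene (chromosome 9, 107296026 to 107302784, + strand, GRCm38), where 2 small genes, Gm17040 and Gm17041, lie on the opposite strand. Neither symbol was among the genes of the count table, so no reads were counted under these names. The strand setting of the counting was not given in the sources used here, so reads of these genes could have been counted for Cish.

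Cish encodes CIS, which binds receptors that activate STAT5, such as those of growth hormone, prolactin and erythropoietin, and competes with STAT5 for their phosphotyrosines. Its normalized counts were 48.2, 41.7 and 37.4 in rAAV8-Scramble replicates 1 to 3 and 254, 429 and 880 in rAAV8-Hnf1aos1 replicates 1 to 3. Every knockdown library lay above every control, and the lowest knockdown value was 5.26 times the highest control value. The means were 42.4 ± 5.45 and 521 ± 323 (SD, n = 3 each), a log2 fold change of 3.61 ± 0.602 (SE) or 12.2-fold. The knockdown libraries were spread widely, with a highest value 3.47 times the lowest against 1.29 times in the controls. Relative to the scramble mean they stood 5.98, 10.1 and 20.7 times as high, and the library with most Cish, replicate 3, was also the one with most Hnf1aos1 left. Without replicate 3 the log2 fold change of Cish was 3.0.

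Socs3 inhibits JAK kinases at receptors that contain gp130, the chain shared by interleukin-6 type cytokines, and lies on chromosome 11 (117966079 to 117970047, - strand, GRCm38, GENCODE). Its normalized counts were 57.5, 51.6 and 59.4 in the control libraries and 130, 325 and 272 in the knockdown libraries. The controls lay within a narrow range, and knockdown replicate 1 was closer to them than replicates 2 and 3 were. The lowest knockdown value was 2.18 times the highest control value. The means were 56.1 ± 4.06 and 242 ± 101 (SD, n = 3 each), with a log2 fold change of 2.11 ± 0.339 (SE) or 4.31-fold. The order of the knockdown libraries was thus not that of Cish: replicate 2 held most Socs3 and replicate 3 most Cish.

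Socs2 restrains growth hormone signalling through the growth hormone receptor, and mice without it grow large (chromosome 10, 95385362 to 95417180, - strand, GRCm38, GENCODE). It had 146, 188 and 72.6 normalized counts in the control libraries and 366, 281 and 708 in the knockdown libraries. The groups did not overlap, with the lowest knockdown value 1.5 times the highest control value, and replicate 3 was the low extreme among controls and the high extreme among knockdown libraries. The log2 fold change was 1.74 ± 0.521 (SE, n = 3 per group) or 3.34-fold, from means of 135 ± 58.3 and 452 ± 226 (SD). The log2 fold change was 1.44 without rAAV8-Scramble replicate 3 and 1.26 without rAAV8-Hnf1aos1 replicate 3.

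Socs1 blocks the kinase domain of JAKs directly and is the main brake on interferon gamma signalling (chromosome 16, 10782240 to 10785536, - strand). It had the fewest raw counts of the family, 13, 9 and 14 in the control libraries and 8, 31 and 42 in the knockdown libraries. The groups overlapped, since knockdown replicate 1 lay below every control while replicates 2 and 3 lay above every control. Normalized means were 12.9 ± 2.79 and 25 ± 15.7 (SD, n = 3 each), with a log2 fold change of 0.96 ± 0.513 (SE). The difference between the means was within the spread of the knockdown libraries, whose highest value was 4.99 times the lowest.

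The remaining members differed less. Socs6, which binds insulin receptor substrate complexes and the receptor tyrosine kinase Kit, had 357, 321 and 285 normalized counts in the controls and 458, 377 and 414 in the knockdown libraries. These groups did not overlap but nearly met, the lowest knockdown value being 1.06 times the highest control value, and the log2 fold change was 0.38 ± 0.118 (SE, n = 3 per group). Socs4 (chromosome 14, 47276931 to 47296102, + strand), linked to turnover of the epidermal growth factor receptor, had 979, 817 and 812 normalized counts in the controls and 990, 919 and 955 in the knockdown libraries. Control replicate 1 lay inside the knockdown range, so the groups overlapped, and the log2 fold change was 0.13 ± 0.0974. Socs5 (chromosome 17, 87107679 to 87137839, + strand), also linked to that receptor and to interleukin-4 signalling, had 187, 194 and 180 against 187, 175 and 161 normalized counts. Its groups overlapped, and its log2 fold change of -0.1 ± 0.123 was the only negative one in the family. Socs7 (chromosome 11, 97362551 to 97398542, + strand), which binds adaptor proteins such as Nck, had 358, 344 and 342 against 302, 381 and 404 normalized counts. Knockdown replicate 1 was the lowest of its 6 libraries and replicate 3 the highest, the groups overlapped, and the log2 fold change was 0.06 ± 0.12. With library sizes from the ERCC spike-ins, which shifted the median of all genes to 0.2, the log2 fold change of Socs5 turned to 0.1, and with 1 library left out that of Socs7 ran from -0.02 to 0.17.

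**Figure D2:**
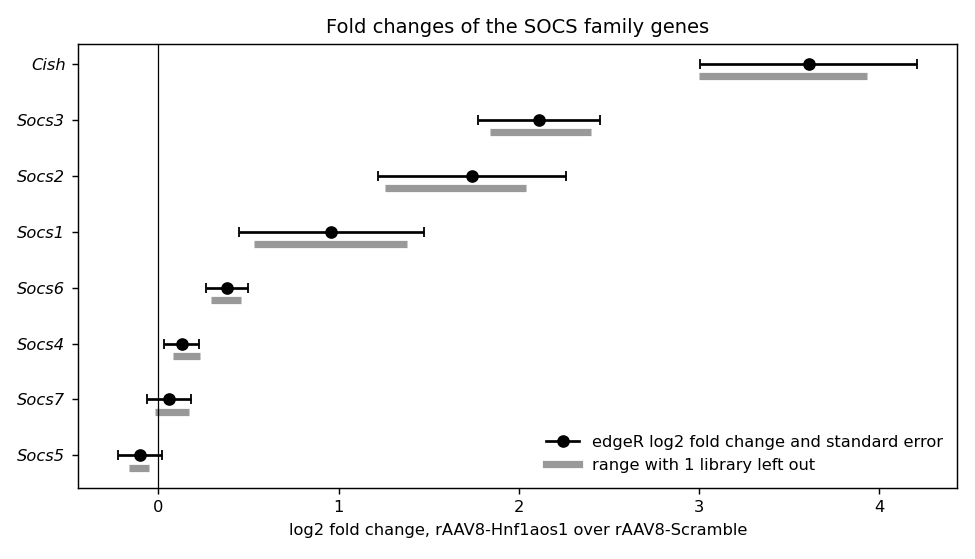
Log2 fold change (x axis, rAAV8-Hnf1aos1 over rAAV8-Scramble, edgeR) of the 8 genes with its SE (black) and, below it in grey, the range over 6 fits that each left out 1 library. Cish ran from 3.0 to 3.93, Socs3 from 1.84 to 2.4, Socs2 from 1.26 to 2.04 and Socs1 from 0.53 to 1.38, while Socs6 ran from 0.29 to 0.46 and Socs4, Socs5 and Socs7 lay between -0.16 and 0.23.

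Levels of different genes were compared on the authors' TPM values, in which transcript abundance is divided by transcript length and scaled to the library. In the control libraries Socs4 had the highest level with a mean of 16.4 TPM, above every library of the next member. Socs6 (6.64 TPM) and Socs7 (6.01 TPM) followed and overlapped each other. Socs3 (2.68 TPM) and Socs5 (2.46 TPM) formed the next pair, lay below both and also overlapped each other. Socs2 (1.34 TPM), Cish (1.29 TPM) and Socs1 (1.26 TPM) were the lowest, overlapped one another and lay below Socs5. The classical STAT targets Socs3, Socs2, Cish and Socs1 and, among them, Socs5 were thus the 5 members of lowest level.

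In the rAAV8-Hnf1aos1 libraries this order was different. Cish had 7.59, 12.1 and 25 TPM in replicates 1 to 3, and its mean of 14.9 TPM stood next to the 17.1 TPM of Socs4, with overlap between them. Socs3 followed with 6.09, 14.4 and 12.1 TPM (mean 10.9), overlapping Cish and Socs6 (8.2 TPM), and Socs6 lay above every library of the next member. Socs7 (5.92 TPM), Socs2 (4.26 TPM), Socs1 (2.28 TPM) and Socs5 (2.17 TPM) lay lower, each overlapping its neighbour in the order. Summed over the family, the level was 41.1, 36.3 and 36.9 TPM in the control libraries and 53.4, 63.3 and 80.5 TPM in the knockdown libraries, so the sums did not overlap. Cish made up 3.18 to 3.53% of the sum in the controls and 14.2, 19.1 and 31% in knockdown replicates 1 to 3. The share of Socs4 was 41.6 to 44.6% in the controls and 21 to 34.6% in the knockdown libraries, at 15.1 to 18.3 TPM and 16.1 to 18.5 TPM.

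**Figure D3:**
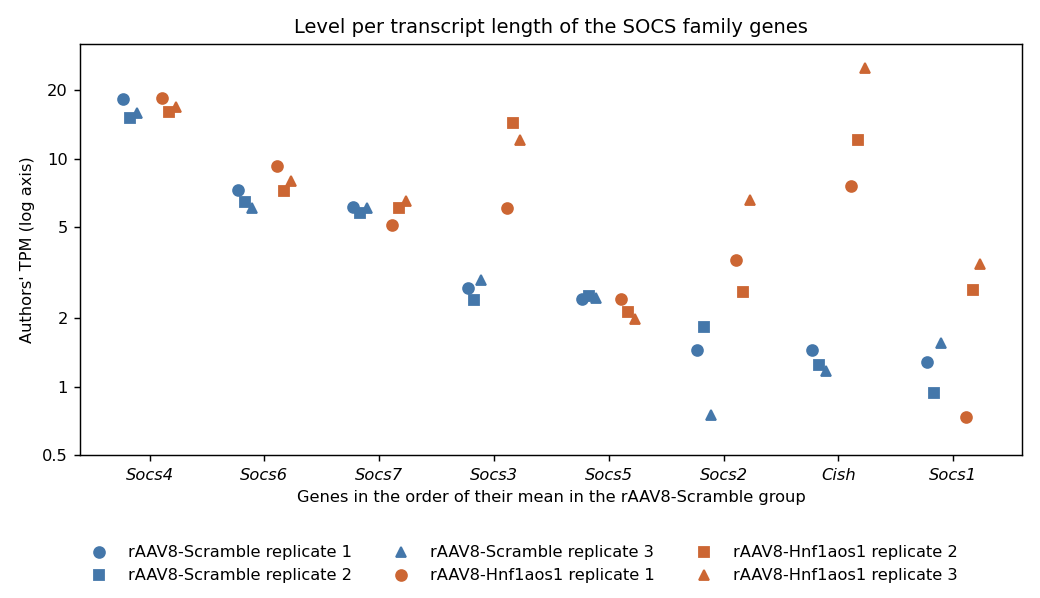
Authors' TPM (y axis, log scale) of the 8 genes, ordered by their mean in the rAAV8-Scramble libraries (blue); rAAV8-Hnf1aos1 libraries are orange and symbols mark the replicate. Socs4 has the highest mean in both groups, but in rAAV8-Hnf1aos1 replicate 3 Cish (25 TPM) lies above Socs4 (16.9 TPM). The blue points of Cish lie between 1.17 and 1.45 TPM.

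The genes whose pattern over the 6 libraries was most like that of Cish were found by the root mean square difference of log2 CPM, each gene centred on its own mean, among 12804 genes with a mean log2 CPM of at least 1. The closest was Gm38678 (0.283), with 128, 112 and 107 normalized counts in the controls and 561, 1792 and 2627 in the knockdown libraries. Next came Gadd45g (0.526), a growth arrest and DNA damage inducible gene, with 44.1, 40.6 and 29.7 against 85.8, 261 and 448 normalized counts. Gm23686 (0.574), the carboxylesterase Ces2b (0.659) and Gm39584 (0.666) completed the 5, beside a median of 1.76 over all genes compared. In each of the 5 the knockdown libraries lay above the controls, and in 4 of them, all but Gm23686, replicate 3 was the highest and replicate 1 the lowest of the knockdown libraries. The genes were picked for a pattern like that of Cish over these libraries, so this order follows from the choice and is not a separate result. Within the family the same measure was 0.806 between Cish and Socs3 and 0.962 between Cish and Socs2.

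For Socs3 the closest gene was the guanylate-binding protein gene Gbp11 (0.324), with 213, 116 and 164 normalized counts in the controls and 257, 738 and 920 in the knockdown libraries. Gm30262 (0.358), the calpain gene Capn8 (0.383), Gbp10 (0.435) and Gm31583 (0.442) followed, beside a median of 1.06 over all genes compared. Guanylate-binding proteins are interferon-induced GTPases of a family with near-identical copies. Per the methods only uniquely mapped reads were counted, so reads that match several copies equally are missing from these counts.

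The other parts of the pathway were read from 8 lists of 155 genes, of which 129 passed the filter on low counts and 19 were called by edgeR (16 higher and 3 lower, 14.7% beside 6.32% of all genes). The lists were drawn up with earlier results of these data known, so their counts are not independent evidence of a direction. The count fell to 3 without rAAV8-Scramble replicate 3 and 7 without rAAV8-Scramble replicate 2, beside 0.619 and 2.34% of all genes called in these fits. It was 36 without rAAV8-Hnf1aos1 replicate 3, beside 11.2%. The number called over all genes thus moved in the same direction. The 3 that were called in every one of the 6 fits with a library left out were Cyp7b1, Selenbp2 and Serpina12. DESeq2 called 42 of the listed genes (beside 7.11% of all genes) and limma's voom 17 (beside 5.19%). Counts of listed genes at an unadjusted p under 0.05 stand beside 3822 of the 16327 genes tested by edgeR.

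**Figure D4:**
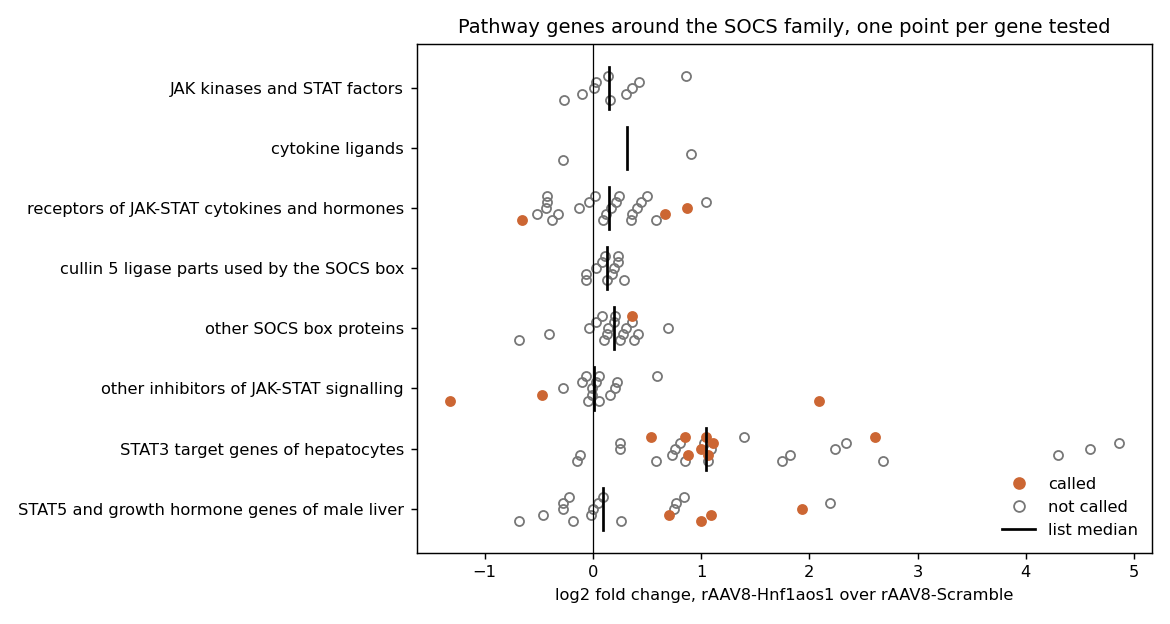
Log2 fold change (x axis, rAAV8-Hnf1aos1 over rAAV8-Scramble) of each tested gene in the 8 pathway lists, filled where called at an adjusted p under 0.05 by edgeR, with the list median as a black bar. The median of the STAT3 target list stands at 1.04, and those of the other 7 lists between 0.01 and 0.31.

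Of the ligands, 17 of 19 did not pass the filter on low counts, with raw counts of 0 to 17. Il6, the ligand most closely tied to Socs3, had raw counts of 0, 0 and 2 in the control libraries and 0, 0 and 1 in the knockdown libraries. Ifng, tied to Socs1, had 0, 0 and 1 against 4, 0 and 0, and Ifnb1, Il22 and Epo had 0 in all 6 libraries. A count of 0 allows up to 3 counts in a library, and growth hormone is made in the pituitary and was not listed. Ctf1 and Il1b were the 2 tested ligands and neither was called by edgeR, DESeq2 or voom, with 1 at an unadjusted p under 0.05. Il1b, an inflammatory cytokine, had 19, 29 and 27 raw counts against 72, 28 and 63 (log2 fold change 0.91 ± 0.357 SE, adjusted p = 0.151, edgeR).

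Of the 24 receptors all were tested. edgeR called 2 higher and 1 lower, beside 3.09 and 3.23% of all genes tested, and the median log2 fold change was 0.14. DESeq2 called 6 (beside 7.11%) and voom 2 (beside 5.19%). By edgeR 12 had an unadjusted p under 0.05, beside 3822 of the 16327 genes tested. Without overlap, 8 receptors were higher and 5 lower, beside 15.2 and 13.7% of all genes tested. Prlr, the prolactin receptor and a target of CIS and Socs2, fell from 2532, 2792 and 2554 normalized counts to 2067, 1398 and 1520 (log2 fold change -0.66 ± 0.136 SE, adjusted p = 0.0224, edgeR). Ifngr2, a chain of the interferon gamma receptor, rose with a log2 fold change of 0.87 ± 0.175 (adjusted p = 0.0233), and Osmr, the oncostatin M receptor, rose by 0.67 ± 0.178 (adjusted p = 0.0477), both by edgeR. Without rAAV8-Scramble replicate 3, edgeR called 0 of the 24, beside 0.619% of all genes, and 8 had an unadjusted p under 0.05. The adjusted p values were then 0.116 for Prlr, 0.132 for Ifngr2 and 0.161 for Osmr. Without rAAV8-Hnf1aos1 replicate 3, 6 were called, beside 11.2% of all genes. Without any 1 of the other libraries 1 was called, beside 1.93 to 3.77%. The receptors most closely tied to Socs2 and Socs3 are given here although chosen after their values were seen. Ghr, the growth hormone receptor, had a log2 fold change of -0.13 ± 0.12, and its groups overlapped. Il6ra was lower without overlap (-0.42 ± 0.13, adjusted p = 0.0801, edgeR). Il6st, which encodes gp130, was higher without overlap (0.35 ± 0.101, adjusted p = 0.0624, edgeR). None of them was called by edgeR.

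Of 10 JAK kinases and STAT factors tested, edgeR and voom called 0 (beside 6.32 and 5.19% of all genes) and DESeq2 called 2 (beside 7.11%). By edgeR 4 had an unadjusted p under 0.05, beside 3822 of the 16327 genes tested. The median log2 fold change was 0.15. Stat3, the factor nearest to Socs3, had 1858, 1791 and 1894 normalized counts in the controls and 3558, 4293 and 2203 in the knockdown libraries, without overlap (log2 fold change 0.86 ± 0.224 SE, adjusted p = 0.0723, edgeR). Stat4 (0.43 ± 0.451), Jak1 (0.36 ± 0.105) and Stat2 (0.31 ± 0.101) had the next largest log2 fold changes. Stat5b, the factor nearest to Cish and Socs2, was chosen after its values were seen. It had 1812, 1690 and 1794 against 1271, 1542 and 1571 normalized counts, also without overlap (-0.27 ± 0.0993, adjusted p = 0.125, edgeR). Without rAAV8-Hnf1aos1 replicate 3, 2 of the 10 were called by edgeR, beside 11.2% of all genes.

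The machinery that the SOCS box recruits showed small differences. Of 11 cullin 5 ligase parts, among them Cul5 and the elongin genes Elob and Eloc, edgeR, DESeq2 and voom each called 0, with 2 at an unadjusted p under 0.05 by edgeR, and their log2 fold changes ran from -0.06 to 0.29. Of 26 other genes with a SOCS box, 18 were tested and 1 was called, beside 6.32% of all genes tested. The called gene was Lrrc41, a substrate receptor of a ubiquitin ligase (log2 fold change 0.36 ± 0.0915 SE, adjusted p = 0.0408, edgeR). Lrrc41 was called in 1 of the 6 fits with a library left out, that without rAAV8-Hnf1aos1 replicate 3, and its adjusted p was 0.0795 to 0.191 in the others.

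Among 16 other inhibitors of JAK-STAT signalling, 1 was called higher and 2 lower by edgeR, beside 3.09 and 3.23% of all genes tested. DESeq2 called 4 (beside 7.11%) and voom 3 (beside 5.19%). Usp18, which removes ISG15 from proteins and blocks the type I interferon receptor, rose from 394, 179 and 243 normalized counts to 1377, 1266 and 831 (log2 fold change 2.09 ± 0.357 SE, adjusted p = 0.039, edgeR as for the next 2 genes). Bcl6, a transcriptional repressor that competes with STAT5 for its sites, fell from 2005, 2185 and 1880 to 503, 985 and 937 (-1.32 ± 0.252, adjusted p = 0.0377). Cblb, a ubiquitin ligase of receptor signalling, had a log2 fold change of -0.47 ± 0.119 (adjusted p = 0.0398). Without rAAV8-Scramble replicate 3 edgeR's adjusted p was 0.157 for Usp18, 0.122 for Bcl6 and 0.17 for Cblb. Without rAAV8-Scramble replicate 2 it was 0.0645, 0.106 and 0.0692. So 0 were called in either case, beside 0.619 and 2.34% of all genes, with 3 at an unadjusted p under 0.05. Without rAAV8-Scramble replicate 1 or rAAV8-Hnf1aos1 replicate 1 or 2, 1 was called, beside 3.74, 3.77 and 1.93%. The Pias genes, which inhibit STAT proteins, were tested and not called. Of the 16 inhibitors 4 had an unadjusted p under 0.05 by edgeR, beside 3822 of the 16327 genes tested.

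The target genes of STAT3 and STAT5 are set beside the inhibitors that these factors are known to induce. On the STAT3 list, 8 of 29 acute phase and related genes were called higher and 0 lower by edgeR. This stands beside 3.09 and 3.23% of all genes tested, and the median log2 fold change of the list was 1.04. The called genes were the fibrinogen chains Fga, Fgb and Fgg, the plasma proteins Hpx, Cp and A2m, the kinase gene Pim1 and the interleukin-1 receptor Il1r1. Fgb rose by 1.11 ± 0.17 SE on the log2 scale (adjusted p = 0.00682) and Pim1, a classical early target of STAT3 and STAT5, from 409, 380 and 364 normalized counts to 537, 826 and 722 (0.85 ± 0.144, adjusted p = 0.0106), both by edgeR. Saa1, chosen after its values were seen, had a log2 fold change of 4.3 and was not called, with 72.8, 68.1 and 99 against 806, 3741 and 172 normalized counts. Without rAAV8-Scramble replicate 3, edgeR called 0 of the 29, beside 0.619% of all genes, and 16 had an unadjusted p under 0.05. Fgb and Pim1 then had adjusted p values of 0.0723 and 0.0831. With rAAV8-Scramble replicate 1 or 2 left out 5 and 2 were called, beside 3.74 and 2.34% of all genes. With rAAV8-Hnf1aos1 replicates 1, 2 and 3 left out in turn 7, 6 and 16 were called, beside 3.77, 1.93 and 11.2%. DESeq2 called 22 (beside 7.11%) and voom 7 (beside 5.19%).

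On the STAT5 list, 4 of 19 growth hormone responsive genes were called higher and 0 lower by edgeR, beside 3.09 and 3.23% of all genes tested. The median log2 fold change was 0.09. Without overlap, 7 genes were higher, the 4 called and Onecut1, Mup20 and Cyp4a12a (beside 15.2% of all genes tested). Also without overlap, 2 were lower (beside 13.7%), Elovl3 (-0.68 ± 0.229 SE) and Cyp4a12b (-0.28 ± 0.1). The genes not called are named here for their lack of overlap. Onecut1, a liver transcription factor chosen after its values were seen, had the largest log2 fold change of the list (2.19 ± 0.462 SE) and was not called by edgeR (adjusted p = 0.0704). The number called was 3 without rAAV8-Scramble replicate 3 (beside 0.619% of all genes) and 8 without rAAV8-Hnf1aos1 replicate 3 (beside 11.2%). It was 4 or 6 without any other library (beside 1.93 to 3.77%). Cyp7b1, an oxysterol hydroxylase of male liver, rose from 3550, 3531 and 2861 normalized counts to 7542, 7599 and 6050 (1.09 ± 0.124 SE, adjusted p = 0.00154, edgeR). Selenbp2 (1.93 ± 0.233), Serpina12 (1.0 ± 0.116) and C9 (0.7 ± 0.126) were the others, and C9 missed the threshold without rAAV8-Scramble replicate 3 (adjusted p = 0.0805). Igf1, the growth factor that growth hormone induces through STAT5b, is given although chosen after its values were seen. It had 12717, 13306 and 12342 against 9186, 9772 and 12667 normalized counts, the groups overlapped, and it was not called (-0.28 ± 0.126, adjusted p = 0.211).

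The 2 target lists did not have their highest knockdown library in common. Replicate 2 was the highest of the knockdown libraries for 21 of the 29 STAT3 targets and replicate 3 for 13 of the 19 STAT5 targets, beside 35.3, 30.4 and 34.3% of all genes in replicates 1 to 3. The STAT5 list held 11 genes above 0 and 8 below 0 on the log2 scale. The 13 include genes with lower means in the knockdown group, such as Igf1, in which replicate 3 lay nearest the controls. Cish, Socs1, Socs2 and Socs7 were highest in replicate 3, Socs3 in replicate 2, and Socs4, Socs5 and Socs6 in replicate 1. Socs3 was lowest in replicate 1, whereas the median of the STAT3 list was lowest in replicate 3. With 3 knockdown libraries this is a description of these livers, and genes of a list share their libraries.

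**Figure D5:**
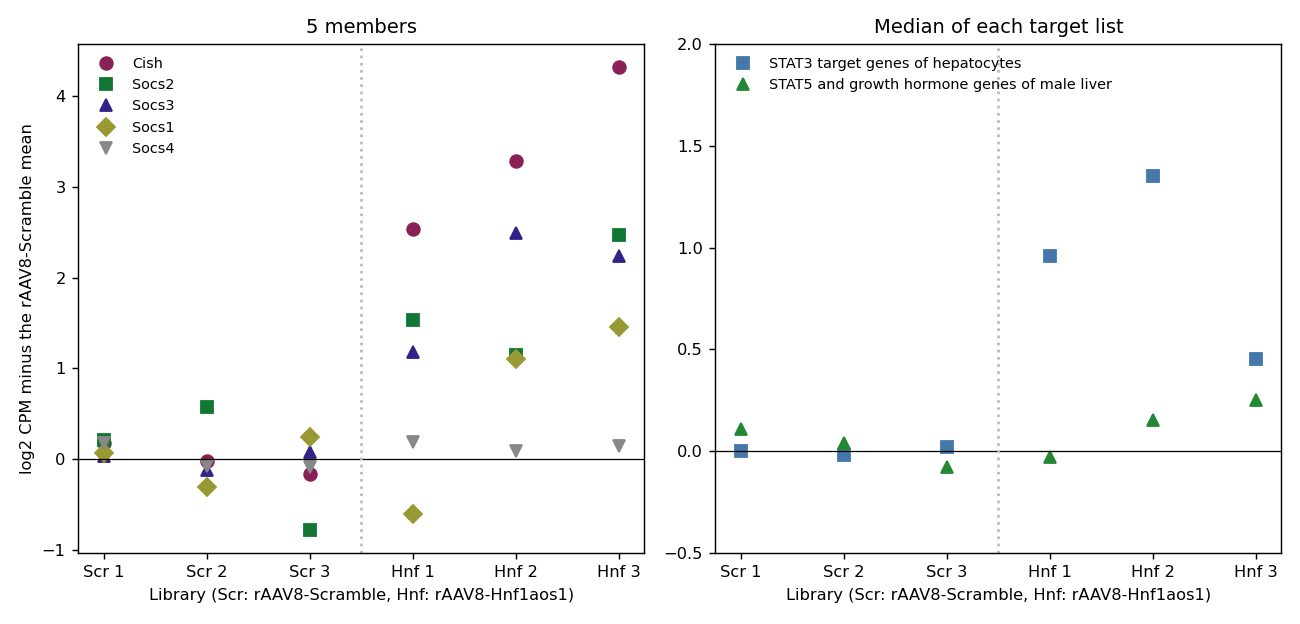
Left, log2 CPM minus the mean of the rAAV8-Scramble libraries (y axis) for Cish, Socs1, Socs2, Socs3 and Socs4 in each library (x axis). Right, the median of the same difference over each STAT target list; in rAAV8-Hnf1aos1 replicates 1 to 3 it was 0.96, 1.35 and 0.45 for the STAT3 list and -0.03, 0.15 and 0.25 for the STAT5 list, while Cish stood at 2.53, 3.28 and 4.32 and Socs3 at 1.18, 2.49 and 2.24.

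Markers of other liver cells moved with the groups to different degrees, and since these are whole livers, more cells of a type and more RNA per cell cannot be told apart. The 11 markers of Kupffer cells and macrophages, cells that also express Socs3 and Socs1, summed to 210 to 251 CPM in the controls and 269 to 339 CPM in the knockdown libraries without overlap. Of them 10 were above 0 on the log2 scale, with a median of 0.44, and Adgre1, Clec4f and Lyz2 were called higher by edgeR, beside 3.09% of all genes. These calls held in 1, 2 and 3 of the 6 fits with a library left out, and all 3 were lost without rAAV8-Scramble replicate 2 or 3 or rAAV8-Hnf1aos1 replicate 2 (adjusted p = 0.208, 0.174 and 0.128 without rAAV8-Scramble replicate 3). The 6 neutrophil markers summed to 0.193 to 0.45 CPM against 0.954 to 2.17 CPM, with Ly6g and Mpo at 0 in every library. None of the 6 passed the filter on low counts, 4 were at 0 in some library, and the highest raw count was 16, so these sums rest on few reads. Markers of T and NK cells (5.7 to 9.26 against 7.36 to 8.98 CPM), B cells (2.9 to 3.18 against 2.62 to 3.84 CPM), sinusoidal endothelium (254 to 282 against 237 to 277 CPM) and stellate cells (256 to 351 against 227 to 327 CPM) overlapped. Cholangiocyte markers summed to 33.8 to 40.3 CPM in the controls and 149, 53.6 and 48.7 CPM in knockdown replicates 1 to 3, replicate 1 being the library with least Cish and Socs3 of its group. The highest raw count of a single cholangiocyte marker was 2266, so the sum of replicate 1 rested mostly on 1 gene. Of the 5 cholangiocyte markers 4 were tested, and edgeR, DESeq2 and voom each called 0, with 0 at an unadjusted p under 0.05 by edgeR. The part of these cells in the values of the SOCS family was not tested.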

How the data were processed

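RNA of 6 livers was sequenced (3 rAAV8-Scramble, 3 rAAV8-Hnf1aos1). Per the methods, reads were trimmed, aligned with STAR to GRCm38, and uniquely mapped exonic reads were counted per gene with featureCounts; the submitters' processing notes name GRCm39 instead, so coordinates here are those of the GRCm38 references (GENCODE, RefSeq) and not of the files. The methods name a poly(A) kit, the labels ribosomal RNA depletion. The strand setting and annotation release were not given in the sources used here. The authors deposited raw counts (whole numbers, not normalized), TPM over the same features, and normalized counts, a signal in which each library was scaled by 1 factor by the authors. Their comparison table, with fold changes and p-values, was not used.

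The 92 ERCC rows (1.185 to 1.52% of all counts, these rows included) were left out. Raw counts were fitted with edgeR 4.0.16 (TMM, filterByExpr defaults, robust quasi-likelihood, R 4.3.3) on group alone, with p-values adjusted by Benjamini-Hochberg over 16327 genes; called means an adjusted p under 0.05. SE is the log2 fold change divided by the root of F. The fit was tested on simulated counts (3 sets of 16327 genes, 200 given a log2 change of 2): it recovered 93.8% and 11.1% of its calls were false. The false share was thus above the threshold of 0.05. Smaller changes, such as that of Lrrc41, were not simulated, so the recovery does not describe them. Chi-square values per gene between libraries of a group (7.73 to 31.9) exceeded sampling noise, so no library repeated another. Gene totals were 14704746 to 19462398 per library, and counting error weighs most on genes of few counts, such as Socs1.

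The members and the gene lists were chosen with earlier results of these data known. Named genes are all members, Hnf1aos1, called genes of each list or otherwise the 4 with the largest change, and the 5 genes most like Cish and Socs3; others are marked. 1 gene and the list of targets named for it are not reported here. Alternatives were other scalings (spike-ins included), filters, DESeq2 1.42.0, limma 3.58.1 voom, the replicate block, the authors' TPM and normalized counts, and leaving out each library. Figures used matplotlib 3.10.9.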

Additional observations from a re-analysis of the deposited data

How the results depend on the processing

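With library sizes from the spike-ins, 3394 genes were called (3030 higher and 364 lower, 20.8%), 4 members (Cish, Socs3, Socs4 and Socs6) and 55 genes of the pathway lists, and the log2 fold changes were 0.34 for Socs4, 0.1 for Socs5, 0.58 for Socs6 and 0.26 for Socs7, each lower by 0.2 when taken relative to the median of all genes. Without a filter on low counts 1902 genes were called and the 2 members were Socs3 and Socs6. limma's voom called 848 genes and 0 members, and DESeq2 1235 genes, 3 members and 42 pathway genes. With 1 library left out, 103 to 1881 genes, 0 to 2 members and 3 to 36 pathway genes were called. Cish had a log2 fold change of 2.64 from the authors' TPM with 1 added, which compresses low values. Hnf1aos1 passed the threshold without the filter (-0.74, adjusted p = 0.00564, edgeR), with DESeq2 (-0.74, 0.00341), with voom (-0.77, 0.0491) and without rAAV8-Hnf1aos1 replicate 3 (-1.01), and ran from -1.01 to -0.6 with 1 library left out. The causes of these differences were not tested.

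The replicate numbers did not pair the samples: same-numbered libraries had deviations correlated at -0.023, 0.023 and 0.003. With the replicate block 878 genes and 2 members, Cish and Socs3, were called, and Hnf1aos1 had a log2 fold change of -0.77 (adjusted p = 0.0138, edgeR). The log2 fold changes of Cish, Socs2 and Socs3 stayed above 1 in every alternative run. Socs1 rests on 8 to 42 counts per library.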
